A study of Mus musculus with 8 samples.

Results

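The genes described here encode the proteins of the mitochondrial ribosome (mitoribosome) and were chosen by name alone, as gene symbols that begin with Mrpl or Mrps followed by a number and at most 1 letter. Names that end in -ps, which mark pseudogenes, were left out. The rule found 78 genes of the 56953 in the count table, 49 named for the large subunit (Mrpl) and 29 named for the small subunit (Mrps). Of these, 77 passed the low-count filter and were among the 9876 genes tested, and Mrps28 did not.

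RNA was sequenced from brown adipose tissue (BAT) of wild-type C57BL/6J mice, male or female and 8 to 10 weeks old. The 4 control (CTR) mice received PBS, and the 4 mice with cancer-associated cachexia (CAC) received 3000000 Lewis Lung Carcinoma (LLC) cells, a mouse lung tumour cell line, under the skin. Animals were monitored for 21 days, and injected mice without a tumour were left out by the study, so the CAC group holds tumour bearers only. Each library comes from 1 mouse, and the sex of each mouse is not given in the sources used here, and its balance between the groups was not examined.

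Mitoribosomal proteins are encoded in the nucleus, made in the cytosol and imported into the mitochondrial matrix. There they assemble, with rRNAs transcribed from mitochondrial DNA, into a ribosome whose products are core subunits of the respiratory chain and of ATP synthase. The small subunit binds the mRNA and decodes it. The large subunit joins the amino acids and releases the chain at the inner membrane. Brown adipocytes are rich in mitochondria and depend on the respiratory chain for heat production.

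The libraries held 1823167 to 4827956 counts, with 2454493 to 4827956 in CTR and 1823167 to 3392538 in CAC, and 28.5% to 33.8% of them fell on mitochondrially encoded genes. At this depth 3 counts, the limit that a count of 0 allows, correspond to 0.661 to 1.62 CPM, the unit of every level below, which scales the counts of a gene by the size of its library, and such limits cover counting error only. Brown adipocyte markers were detected in every library. Ucp1, the uncoupling protein of brown fat, averaged 3970 ± 186 CPM (SD, n = 4) in the CTR libraries and 4060 ± 601 CPM in the CAC libraries. The summed brown adipocyte list of 10 genes was 18300 to 20200 CPM in CTR and 17400 to 19900 CPM in CAC, with Ucp1, Cidea and Fabp4 as its most abundant members. Within that list 5 of 10 genes had a log2 fold change below 0. Its only called gene, Ppargc1a, rose and is described with the promoters, while Plin1 (-0.27), Cox8b (-0.22) and Cox7a1 (-0.22) had all CAC libraries below all CTR libraries, with edgeR adjusted p values of 0.192, 0.286 and 0.292. Marker RNAs of some other cell types were higher in CAC. The summed neutrophil list of 8 genes was 6.12 to 6.92 CPM in CTR and 165 to 431 CPM in CAC. Its 3 tested members (S100a8, S100a9 and Retnlg) rose. S100a8 (mean 175 CPM) and S100a9 (73.5 CPM) made up most of the list's mean of 266 CPM in CAC. In CTR, S100a8 was at 2.88 to 4.79 CPM, S100a9 at 0.83 to 2.52 CPM and Retnlg at 0.36 to 2.07 CPM. These genes therefore passed the low-count filter mainly through their CAC levels, and the other members of the list did not pass it. That every tested member rose thus follows in part from the filter and is no share of the list. The paper reports no significant difference in the numbers of CD45+ cells or neutrophils. It proposes brown adipocytes as the main source of secreted S100A9, resting also on staining of tissue sections and on cultured brown adipocytes. For S100A8 protein in the BAT secretome it reports only minimal detection and no appreciable difference. The values here are RNA of the whole tissue. The macrophage list of 8 genes was 196 to 216 CPM in CTR and 272 to 370 CPM in CAC, and C1qa and C1qb rose. Skeletal muscle genes summed to 1020 to 2610 CPM in CTR and 2180 to 4210 CPM in CAC, and erythroid genes to 6180 to 19300 CPM and 14600 to 44300 CPM, with no member of either list called. The summed muscle, erythroid, endothelial and fibroblast lists overlapped between the groups. The part of these shifts in the results below was not tested, and in bulk tissue fewer cells of a type and less RNA per cell cannot be told apart.

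Promoters of the 4 members with the smallest p in the comparison of CAC with CTR are shown here, because these genes carry the lowest p values of the family and because regulators of mitochondrial genes are known to act at such promoters. The sequences come from RefSeq (GRCm38.p6) and run 5′ to 3′ on the strand of the gene, from 180 bases before the RefSeq start to 30 bases after it. Capitals mark the letters of 3 motifs found in them, namely GCGCATGC, the core of sites for nuclear respiratory factor 1 (NRF1), CCGGAAG for the ETS factor GABPA (also called NRF2), and AAGGTCA for the estrogen-related receptors (ERRA). Both strands were searched, and overlaps between motifs were allowed. The windows are chr3:95871485-95871694 (minus strand), chr5:31613771-31613980 (plus strand), chr13:100744630-100744839 (minus strand) and chr16:84735215-84735424 (minus strand). The RefSeq starts of Mrpl33 and Mrpl39 lie inside the longer gene bounds of the GENCODE annotation.
Mrps21 promoter: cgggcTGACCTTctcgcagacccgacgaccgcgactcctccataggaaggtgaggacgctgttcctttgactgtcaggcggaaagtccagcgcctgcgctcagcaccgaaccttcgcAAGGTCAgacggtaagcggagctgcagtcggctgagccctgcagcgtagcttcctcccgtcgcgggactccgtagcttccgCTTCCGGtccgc
Mrpl33 promoter: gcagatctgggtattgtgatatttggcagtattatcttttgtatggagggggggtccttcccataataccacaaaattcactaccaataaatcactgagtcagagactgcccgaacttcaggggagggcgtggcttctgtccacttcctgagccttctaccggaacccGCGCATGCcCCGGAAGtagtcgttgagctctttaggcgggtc
Mrps36 promoter: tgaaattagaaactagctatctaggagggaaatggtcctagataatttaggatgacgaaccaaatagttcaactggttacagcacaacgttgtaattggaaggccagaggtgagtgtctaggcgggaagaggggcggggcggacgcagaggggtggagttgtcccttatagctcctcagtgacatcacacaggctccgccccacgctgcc
Mrpl39 promoter: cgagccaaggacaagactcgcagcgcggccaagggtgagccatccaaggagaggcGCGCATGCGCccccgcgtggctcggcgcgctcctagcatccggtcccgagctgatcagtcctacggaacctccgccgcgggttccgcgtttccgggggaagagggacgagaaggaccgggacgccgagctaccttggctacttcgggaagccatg

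The promoter of Mrps21 held the ERRA letters on both strands, beginning 175 and 63 bases upstream of the start, and the GABPA letters on the other strand beginning 18 bases downstream of it. The Mrpl33 promoter held the NRF1 letters 12 bases upstream, followed by GABPA letters that span the start. In Mrpl39 the NRF1 letters overlapped on both strands, 125 and 123 bases upstream. None of the motifs was found in the Mrps36 window. Across the family, 69 of the 78 genes matched the RefSeq table, with 75 promoters between them. In windows of 300 bases, the GABPA letters were in 34.7% of these 75 promoters and in 8.86% of all 32851 promoters of the table. The letters AAGATGGC of YY1, a zinc finger factor, were in 16.0% of the family's promoters and 2.75% of all promoters, the NRF1 letters in 10.7% and 2.71%, and the ERRA letters in 5.33% and 4.72%. By subunit, the GABPA letters were in 31.2% of 48 Mrpl and 40.7% of 27 Mrps promoters, the YY1 letters in 12.5% and 22.2%, the NRF1 letters in 14.6% and 3.7%, and the ERRA letters in 4.17% and 7.41%. All promoters of the table include those of genes that were not tested here, and no comparison with expressed genes alone was made. The shares therefore do not set the family apart from other expressed genes. A match describes the letters only and is no evidence of binding. Ppargc1a, a coactivator that partners with NRF1, GABPA and the estrogen-related receptors, was at 43.9, 44.7, 52.3 and 66.4 CPM in the CTR libraries and at 106, 65.9, 91.1 and 82.3 CPM in the CAC libraries. It rose in CAC (log2 fold change 0.73 ± 0.15 SE, edgeR adjusted p = 0.0201). The groups overlapped, since CTR replicate 4 lay just above CAC replicate 2, but no other pair of libraries crossed.

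Mrps21 (ENSMUSG00000054312.7) was the only member that changed with an adjusted p below 0.05. It encodes a small subunit protein related to bacterial S21 and lies on chromosome 3 of GRCm38 from 95862634 to 95871519 on the minus strand, with 739 bp of exon and no exon shared with another gene. Its level was 202, 225, 164 and 216 CPM in CTR replicates 1 to 4 and 141, 124, 141 and 146 CPM in CAC replicates 1 to 4. All 4 CAC libraries lay below all 4 CTR libraries, and the CTR libraries were spread more widely than the CAC libraries. The mean was 202 ± 26.6 CPM (SD, n = 4) in CTR and 138 ± 9.29 CPM in CAC (log2 fold change -0.55 ± 0.11 SE, 95% interval -0.78 to -0.32, edgeR adjusted p = 0.0146). The call was lost without CTR replicate 1 (edgeR adjusted p = 0.0536), without CTR replicate 2 (0.0596) and without CAC replicate 2 (0.0519), with log2 fold changes of -0.55, -0.50 and -0.50. Over all alternatives run, the adjusted p of Mrps21 ranged from 8.83e-05 with no low-count filter to 0.0596, and in every one its log2 fold change was below 0. In 4 of the 8 libraries its count held fractions of reads, which the counting step shares between genes.

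Read against all genes, this single call is 1.3% of the 77 tested members, while 92 of the 9876 tested genes, 0.932%, were called in either direction and 0.192% were called lower in CAC. The next smallest edgeR adjusted p among the members was 0.24. With an unadjusted p below 0.05, 7 members were lower in CAC (9.09%, against 5.93% of all tested genes) and 0 were higher (against 7.01%). The 7 were Mrps21, Mrpl33, Mrps36, Mrpl39, Mrpl44, Mrps11 and Mrpl53. All 4 CAC libraries lay below all 4 CTR libraries in 5 members (6.49%, against 3.4% of all tested genes), namely Mrps21, Mrpl33, Mrpl44, Mrps16 and Mrps2, and above them in 0 members (against 3.64%). Mrps2 was named after its values were seen. The count at an unadjusted p below 0.05 depended on single libraries. It was 3 without CTR replicate 3 (3.9% of members, against 5.22% of all genes in that fit) and 4 without CAC replicate 3 (5.19% against 5.52%), so there the share of members was under that of all genes. With DESeq2 it was also 4, 5.19% against 3.66%.

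The direction of the fitted differences was less even. A log2 fold change below 0 was found in 53 of the 77 members, 68.8%, against 50.0% of all tested genes. It was found in 31 of 49 Mrpl genes (63.3%) and in 22 of 28 Mrps genes (78.6%). Without CAC replicate 3 it was found in 47 of the 77 members (61.0%, against 50.0% of all genes in that fit). The members share the same libraries and are not independent. Their median log2 deviation from each gene's mean over all libraries was 0.028 to 0.066 in CTR. In CAC replicates 1 to 4 it was 0.031, -0.042, -0.111 and -0.044, so CAC replicate 1 lay inside the CTR range. The median log2 fold change was -0.09 over all members (quartiles -0.20 and 0.03), -0.06 over Mrpl and -0.11 over Mrps genes, beside 0.00 over all tested genes (quartiles -0.17 and 0.17). The order of the subunits depended on single libraries, since the medians were -0.07 over Mrpl and -0.06 over Mrps genes without CTR replicate 4, and -0.08 over both without CAC replicate 1. Differences of the members ranged from -0.55 to 0.20. Their 95% intervals lay within a 1.5-fold change in either direction for 64 of the 77 members and within a 2-fold change for 76, with Mrpl44 as the exception.

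**Figure D1:**
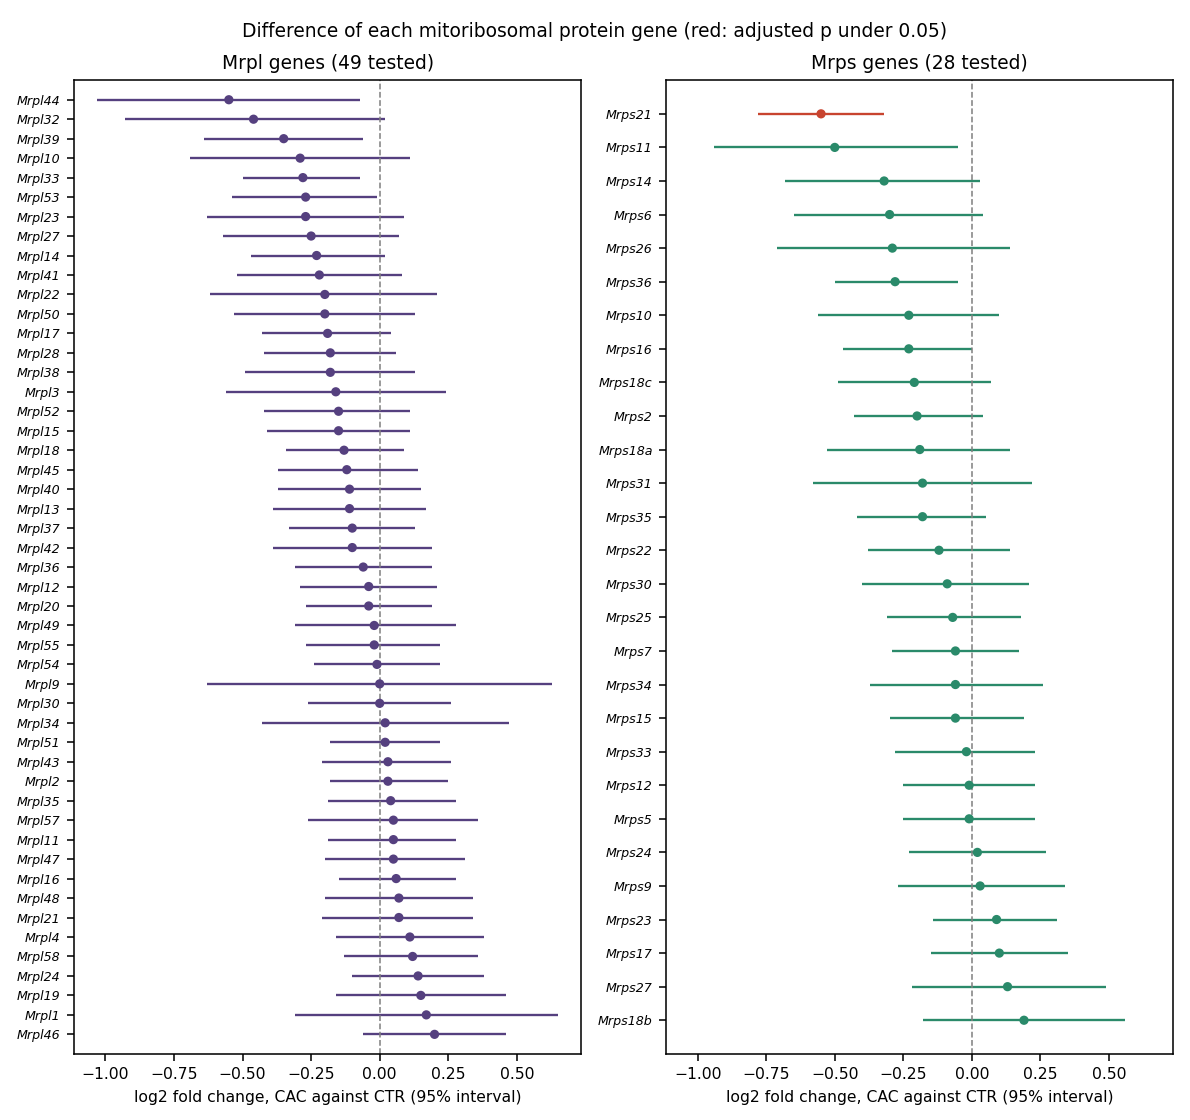
Log2 fold change of CAC against CTR for each tested Mrpl gene (left) and Mrps gene (right), with the 95% interval of edgeR's quasi-likelihood fit as a line. Most points lie between -0.30 and 0.20, and Mrps21 is the only gene drawn in red for an adjusted p below 0.05.

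**Figure D2:**
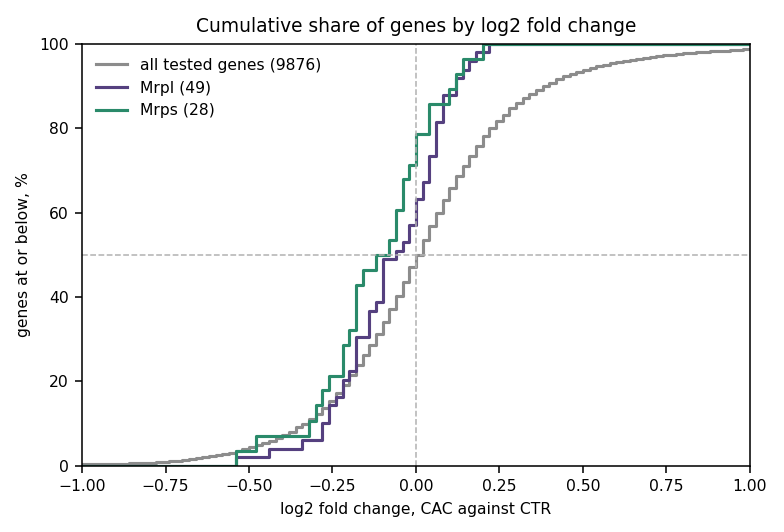
Share of genes (%) at or below each log2 fold change of CAC against CTR, for 9876 tested genes, 49 Mrpl and 28 Mrps genes. Both family curves cross the line at 50% left of 0, at medians of -0.06 and -0.11, and reach 100% near 0.20, while the curve of all genes runs on to larger increases.

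Summed over the family, the level in the libraries was 5037, 4966, 5080 and 5048 CPM in CTR replicates 1 to 4 and 5210, 4665, 4379 and 4787 CPM in CAC replicates 1 to 4. The CTR libraries were tightly grouped, whereas CAC replicate 1 lay above all of them and the other 3 CAC libraries below. The sum of the Mrpl genes was 3350 ± 54.5 CPM (SD, n = 4) in CTR and 3240 ± 233 CPM in CAC, with overlapping groups. The sum of the Mrps genes was 1661, 1677, 1674 and 1738 CPM in CTR and 1673, 1495, 1402 and 1519 CPM in CAC. Here CAC replicate 1 fell inside the CTR range and the other 3 CAC libraries below it. Of the cell type lists, the neutrophil genes summed to 431, 185, 283 and 165 CPM in CAC replicates 1 to 4. Skeletal muscle genes summed to 2180 CPM in CAC replicate 1 and to 3300 to 4210 CPM in the other 3. In the same order of CAC libraries, brown adipocyte genes summed to 19900, 17800, 17400 and 19500 CPM. Erythroid genes summed to 44300, 14600, 37900 and 23700 CPM, and fibroblast genes to 432, 560, 657 and 527 CPM. Macrophage genes were at 313, 272, 370 and 336 CPM, and endothelial genes at 297, 312, 305 and 225 CPM.

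The ratio of the Mrpl sum to the Mrps sum was 2.03, 1.96, 2.03 and 1.90 in CTR and 2.12, 2.12, 2.12 and 2.15 in CAC. The groups did not overlap, with means of 1.98 ± 0.0624 (SD, n = 4) and 2.13 ± 0.0164. Whether the groups separated depended on which genes were counted. Without Mrps21 the ratio was 2.18 to 2.31 in CTR and 2.31 to 2.38 in CAC. The groups then overlapped, with the higher mean still in CAC. Over the 15 Mrpl and 10 Mrps genes whose counts hold no fractions of reads in any library, it was 1.21 to 1.35 in CTR and 1.18 to 1.31 in CAC, with the lower mean in CAC. Both of these settings were chosen after seeing the data.

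**Figure D3:**
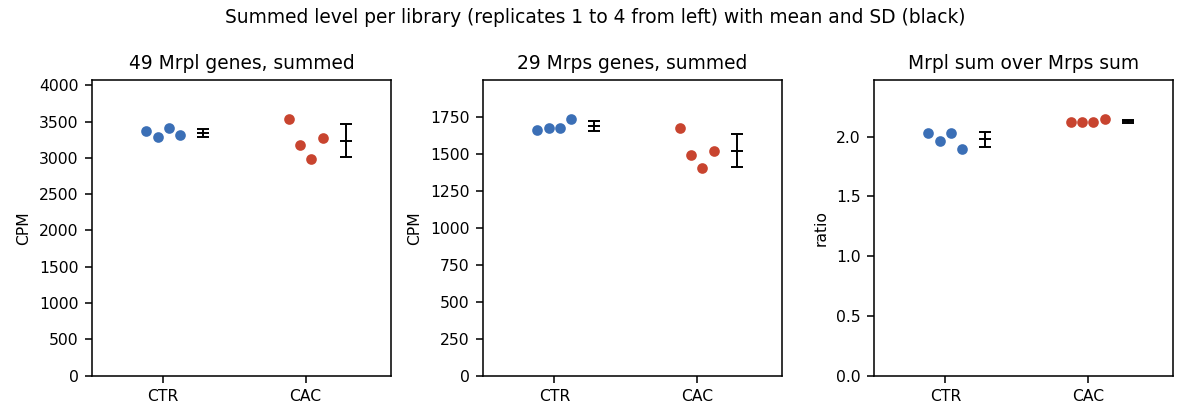
Summed level (CPM) of 49 Mrpl and 29 Mrps genes and the ratio of the sums in each library, with mean and SD of 4 libraries in black. The CTR libraries sit close together in both sums, CAC replicate 1 is the highest CAC library in both, and the ratios of the CAC libraries (2.12 to 2.15) lie above those of the CTR libraries (1.90 to 2.03).

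Among the core proteins of the large subunit, which the mitoribosome shares with bacteria, 10 of 17 tested members had a log2 fold change below 0 and the median was -0.04. Mrpl33, related to bacterial L33, was at 118, 123, 133 and 105 CPM in CTR and 100, 96.3, 95.5 and 100 CPM in CAC. Its groups did not overlap, although CTR replicate 4 lay near the CAC libraries. The fitted difference was -0.28 ± 0.11 SE on the log2 scale (edgeR adjusted p = 0.24), and its exons overlap those of Gm43809 on the same strand. Mrpl32, which is cut to its mature form by a protease of the inner membrane, was low at 7.92, 11.5, 11.6 and 11.2 CPM in CTR and 8.11, 9.04, 8.20 and 5.93 CPM in CAC. CTR replicate 1 fell among the CAC libraries, and the difference was -0.46 on the log2 scale (edgeR adjusted p = 0.405). Mrpl14, on the face that meets the small subunit, averaged 79.3 ± 4.52 CPM in CTR and 68.2 ± 8.66 CPM in CAC (log2 fold change -0.23, edgeR adjusted p = 0.423). Mrpl34, related to bacterial L34, had the highest CPM of the family before any correction for length, with means of 260 ± 54.7 CPM in CTR and 263 ± 68.9 CPM in CAC. Its log2 fold change of 0.02 changed sign under other normalizations and without some libraries.

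Around the exit of the nascent chain, 6 of 8 tested members had a log2 fold change below 0, with a median of -0.20. Mrpl39 and Mrpl44 are proteins of this rim that bacteria lack. Mrpl39 was at 46.1, 39.2, 41.1 and 34 CPM in CTR and 27.0, 36.7, 31.1 and 30.3 CPM in CAC (log2 fold change -0.35 ± 0.14 SE, edgeR adjusted p = 0.27). CAC replicate 2 lay above CTR replicate 4, and no other pair of libraries crossed. Mrpl44 was at 8.28, 10.9, 11.2 and 9.70 CPM in CTR and 4.87, 6.38, 7.33 and 8.02 CPM in CAC. Its groups did not overlap, and its difference of -0.55 ± 0.23 SE on the log2 scale (edgeR adjusted p = 0.305) was as large as that of Mrps21 with a wider interval, -1.03 to -0.07. An exon of Wdfy1 overlaps Mrpl44 on the other strand, and the strand setting of the counting is not given in the sources used here.

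In the stalk, which recruits the translation factors, 4 of 5 tested members had a log2 fold change below 0 and the median was -0.04. Mrpl53 was at 38.1, 38.9, 39.8 and 40.1 CPM in CTR and 30.3, 30.8, 29.9 and 38.3 CPM in CAC (log2 fold change -0.27, edgeR adjusted p = 0.363). All CTR libraries were within a narrow range, 3 CAC libraries lay well below it and CAC replicate 4 reached it. Mrpl10, the base of the stalk, averaged 22.2 ± 3.84 CPM in CTR and 18.5 ± 4.63 CPM in CAC (log2 fold change -0.29, edgeR adjusted p = 0.562), a difference of -0.09 without CAC replicate 3 and of -0.17 without CTR replicate 2. Mrpl12, the mobile arm of the stalk and one of the 3 Mrpl genes with the highest CPM, was at 253, 216, 214 and 205 CPM in CTR and 280, 204, 190 and 191 CPM in CAC. Replicate 1 was the highest library of each group, and the log2 fold change of -0.04 (edgeR adjusted p = 0.935) changed sign when single libraries were left out.

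The central protuberance, where the large subunit touches the small subunit, had 4 of 7 tested members below 0 and a median of -0.11. Mrpl46 in this group had the largest positive difference of the family. It was at 77.7, 72.4, 66.8 and 85.1 CPM in CTR and 107, 82.4, 76.8 and 83.3 CPM in CAC (log2 fold change 0.20 ± 0.12 SE, edgeR adjusted p = 0.527). Its groups overlapped, and CAC replicate 1 was the only library far above the rest, without which the difference was 0.10. Mrpl27, related to bacterial L27, averaged 28.7 ± 4.96 CPM in CTR and 24.0 ± 2.23 CPM in CAC (log2 fold change -0.25, edgeR adjusted p = 0.529, and -0.14 without CTR replicate 1). Among the 12 Mrpl genes in no structural list, 7 were below 0 with a median of -0.02. Mrpl51, the other of the 3 Mrpl genes with the highest CPM, averaged 171 ± 12.4 CPM in CTR and 174 ± 9.75 CPM in CAC (log2 fold change 0.02, edgeR adjusted p = 0.959).

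The body and platform of the small subunit held Mrps21 and gave 9 of 11 tested members below 0, with a median of -0.20. The summed level of its 12 genes was 803 to 831 CPM in CTR and 649 to 780 CPM in CAC, without overlap. This separation needs Mrps21. Without it, a setting chosen after seeing the data, the sums were 602, 598, 650 and 615 CPM in CTR and 639, 524, 512 and 570 CPM in CAC, and the groups overlapped. Mrps11, a platform protein, was at 15.5, 14.4, 13.7 and 10.8 CPM in CTR and 11.4, 9.57, 7.03 and 10.8 CPM in CAC (log2 fold change -0.50 ± 0.21 SE, edgeR adjusted p = 0.318). CTR replicate 4 lay inside the CAC range. Mrps16, related to bacterial S16, was at 73.4, 69.8, 70.5 and 69.7 CPM in CTR and 69.2, 61.7, 52.5 and 58.9 CPM in CAC, without overlap (log2 fold change -0.23, edgeR adjusted p = 0.392). The gap between the groups was narrow, since CAC replicate 1 lay just under CTR replicate 4. Mrps2, related to bacterial S2, was at 47.9 to 56.0 CPM in CTR and 42.5 to 47.6 CPM in CAC (log2 fold change -0.20, edgeR adjusted p = 0.50).

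Mrps6, a platform protein whose exons overlap those of Slc5a3 and Gm49711 on the same strand, turned on a single library. It was at 164, 156, 186 and 157 CPM in CTR and 197, 109, 117 and 117 CPM in CAC. In CAC replicate 1 it was above every CTR library, and in the other 3 CAC libraries it was below every CTR library. Over all 8 libraries the difference was -0.30 ± 0.16 SE on the log2 scale (edgeR adjusted p = 0.464), and without CAC replicate 1 it was -0.53 (edgeR adjusted p = 0.0138). In the other alternatives its adjusted p ranged from 0.151 to 0.677. Slc5a3 encodes a myo-inositol transporter that shares its first exons with Mrps6, so reads of the 2 genes may not be separable.

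Mrps28, the member that was not tested, lies on chromosome 3 from 8802146 to 8923918. Its counts were 6, 6, 3 and 5 in CTR replicates 1 to 4 and 1, 1, 2 and 1 in CAC replicates 1 to 4. The CTR values of 1.10 to 2.16 CPM and the CAC values of 0.349 to 0.586 CPM are at or near the level of 3 counts, so no fold is given. All CAC libraries lay below all CTR libraries.

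In the head of the small subunit, 6 of 8 tested members had a log2 fold change below 0 and the median was -0.12. Mrps14 was at 18.4, 22.9, 19.9 and 25.1 CPM in CTR and 15.7, 13.8, 18.5 and 20.6 CPM in CAC (log2 fold change -0.32, edgeR adjusted p = 0.437). Mrps35 averaged 53.2 ± 1.51 CPM in CTR and 47.0 ± 3.94 CPM in CAC (log2 fold change -0.18, edgeR adjusted p = 0.527). In both genes the groups overlapped. Of the 6 Mrps genes in no structural list, 4 were below 0 with a median of -0.06, and the most abundant of them by CPM, Mrps23, averaged 147 ± 6.89 CPM in CTR and 156 ± 20.5 CPM in CAC (log2 fold change 0.09, edgeR adjusted p = 0.799, and 0.02 without CAC replicate 1).

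The rule takes 3 genes whose names do not match the place of their protein. MRPS18A and MRPS30 are built into the large subunit, and MRPS36 belongs to the oxoglutarate dehydrogenase complex of the citric acid cycle. Mrps36 was at 145, 131, 154 and 151 CPM in CTR and 137, 125, 105 and 113 CPM in CAC (log2 fold change -0.28 ± 0.11 SE, edgeR adjusted p = 0.265), with CAC replicate 1 inside the CTR range. It held fractions of reads in 6 libraries. Mrps18a averaged 43.0 ± 10.1 CPM in CTR and 38.5 ± 6.17 CPM in CAC (log2 fold change -0.19, edgeR adjusted p = 0.663). Without CTR replicate 4 its difference was -0.01, and without CAC replicate 3 it was -0.08. Mrps30 averaged 30.9 ± 4.72 CPM and 29.1 ± 3.17 CPM (log2 fold change -0.09). With Mrps18a and Mrps30 counted in the large subunit and Mrps36 left out, a setting chosen after seeing the data, the ratio of the sums was 2.27 to 2.39 in CTR and 2.45 to 2.50 in CAC.

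**Figure D4:**
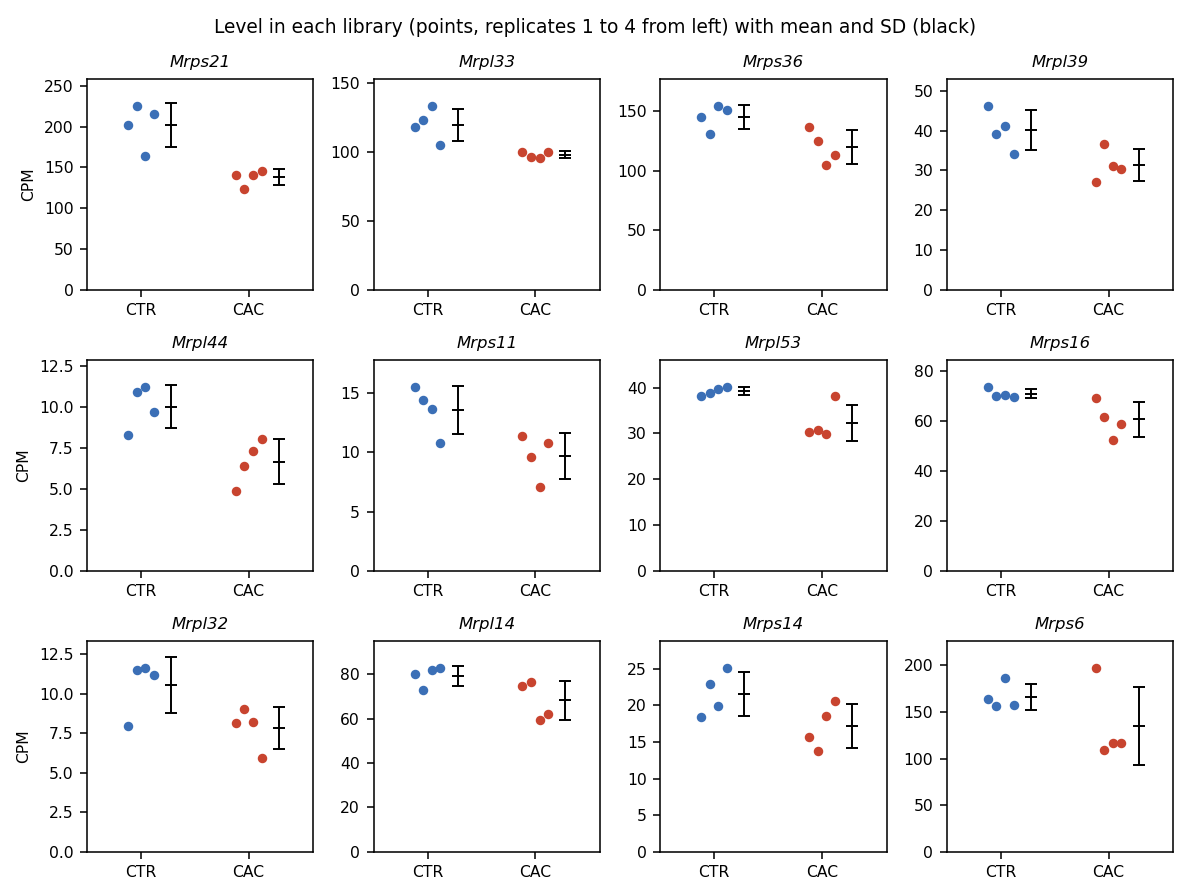
Level (CPM) in each library of the 12 members with the smallest p, with CTR in blue, CAC in red and the mean and SD of 4 libraries in black. Mrps21, Mrpl33, Mrpl44 and Mrps16 show no overlap between groups, while Mrps6 has 1 CAC library at 197 CPM above all CTR libraries and the other 3 at 109 to 117 CPM.

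The position of the genes was described from the GENCODE M21 annotation, whose build is GRCm38. The 78 genes lie on 17 chromosomes, with 11 of them on chromosome 11. Of the 78, 18 (23.1%) have a protein-coding gene that starts within 1000 bp upstream on the other strand. The share was 6.79% among 21951 protein-coding genes, whether expressed in BAT or not. Some of these neighbours also serve mitochondrial gene expression. Mrps12, a decoding-site protein, starts 172 bp from Sars2, the mitochondrial seryl-tRNA synthetase. Mrps12 averaged 84.5 ± 7.14 CPM in CTR and 84.0 ± 8.74 CPM in CAC (log2 fold change -0.01), and Sars2 8.32 ± 0.588 CPM and 8.90 ± 0.808 CPM (0.09). Mrps27 starts 81 bp from Ptcd2, an RNA-binding protein of mitochondria, with log2 fold changes of 0.13 and -0.04. Mrps11 and Mrpl46, members of different subunits, lie head to head on chromosome 7 with first exons that overlap on opposite strands, from 78783119 for Mrps11 to 78783531 for Mrpl46. Their log2 fold changes of -0.50 and 0.20 had opposite signs, and the difference between them was not tested. When single libraries were left out, they ranged from -0.60 to -0.34 for Mrps11 and from 0.10 to 0.27 for Mrpl46. The strand setting of the counting is not given in the sources used here, so reads of the shared stretch may not be assigned to the right gene.

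Differences were also set out by promoter motif. The median log2 fold change was -0.12 in 26 members with the GABPA letters and -0.07 in 43 without, and -0.24 in 8 members with the NRF1 letters and -0.06 in 61 without. For YY1 it was -0.06 with (12 members) and -0.11 without (57), and for ERRA -0.06 with (4 members) and -0.10 without (65). Mrpl33 and Mrpl39 are 2 of the 8 members with the NRF1 letters. These medians are descriptions over small sets and were not tested.

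Other genes that serve the mitoribosome were described as whole lists, none of which held a called gene. Of 5 mitoribosomal proteins under other names, 4 were below 0 with a median of -0.07. Ptcd3 (log2 fold change -0.14) and Dap3 (-0.11), both of the small subunit, had the smallest p. Of 23 tested genes for assembly and rRNA modification, 17 were below 0 with a median of -0.09. Among them C1qbp, a matrix protein needed for mitochondrial translation, was at 65.5, 70.8, 59.8 and 59.5 CPM in CTR and 43.8, 50.0, 55.1 and 53.7 CPM in CAC, without overlap (log2 fold change -0.33 ± 0.12 SE, edgeR adjusted p = 0.22). Ngrn, which acts in rRNA maturation, differed on the log2 scale by -0.33 (edgeR adjusted p = 0.48).

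Translation factors were mixed, with 10 of 16 below 0 and a median of -0.06. Mtres1, which rescues stalled mitoribosomes, differed on the log2 scale by -0.30 (edgeR adjusted p = 0.309), and Gfm2, which splits the subunits after termination, by 0.31 (edgeR adjusted p = 0.344). Of 20 genes for mitochondrial aminoacyl-tRNA synthesis, 15 were below 0 with a median of -0.15. Gatb, of the amidotransferase that makes glutaminyl-tRNA, differed on the log2 scale by -0.46 (edgeR adjusted p = 0.389). Of 18 genes for mitochondrial transcription and RNA processing, 11 were below 0 with a median of -0.09. Fastkd3, an RNA-binding protein of mitochondria, was at 7.56, 8.52, 10.8 and 8.60 CPM in CTR and 4.87, 2.66, 3.22 and 5.93 CPM in CAC, without overlap, and its difference of -1.06 ± 0.27 SE on the log2 scale came close to the threshold without passing it (edgeR adjusted p = 0.0707). Hsd17b10, a subunit of the mitochondrial RNase P, differed on the log2 scale by 0.34 (edgeR adjusted p = 0.151), and each CAC library lay above each CTR library.

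The mRNAs that the mitoribosome translates and the rRNAs it is built on are encoded in mitochondrial DNA. Of 13 mitochondrial mRNAs, 9 were below 0 with a median of -0.09. The smallest p belonged to mt-Nd3, a complex I subunit, at 1980, 2040, 1790 and 1910 CPM in CTR and 1320, 1550, 1570 and 1620 CPM in CAC (log2 fold change -0.35 ± 0.09 SE, edgeR adjusted p = 0.0731), followed by mt-Co2, a complex IV subunit (-0.34, edgeR adjusted p = 0.103). In both, all CAC libraries lay below all CTR libraries. The rRNA genes mt-Rnr1 (0.31, edgeR adjusted p = 0.472) and mt-Rnr2 (0.24, edgeR adjusted p = 0.592) overlapped between the groups. Their sum ranged from 2150 to 3670 CPM among the CTR libraries alone, beside 278000 to 354000 CPM for the mitochondrial mRNAs. The libraries were prepared with an mRNA method, so the reads of the rRNA genes may not follow the amount of rRNA in the tissue.

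**Figure D5:**
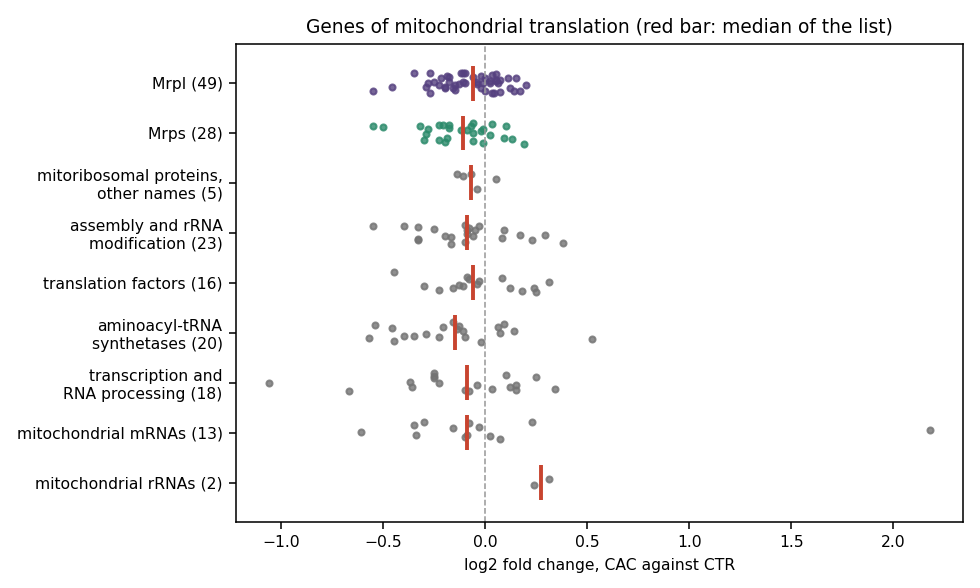
Log2 fold change of CAC against CTR for each tested gene of the lists that serve mitochondrial translation, with the number of genes in brackets and the median as a red bar. The medians of all lists lie between -0.15 and -0.06 except that of the 2 mitochondrial rRNAs, which is 0.27, and the single point near 2.18 is mt-Nd4l, which stood out in CAC replicate 3 alone.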

How the data were processed

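RNA from the BAT of 8 mice (4 CTR, 4 CAC) was prepared by a digital mRNA-seq service and sequenced as single-end reads, 1 library each. Per the labels, the authors used FastQC 0.11.9, HISAT2 2.2.1, featureCounts with its multi-mapping option and build mm10. The main deposited table gives expected counts per gene, unnormalized and in part fractional. The signal in the other deposited table was scaled by the authors with DESeq2 and served only an alternative. Of the 78 members, 53 hold fractions of reads in at least 1 library and 33 share exon positions with another gene, 8 of them on the same strand.

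Expected counts were rounded and tested with edgeR 4.0.16 in R 4.3.3 (filterByExpr, TMM, quasi-likelihood test, robust, CAC against CTR, no covariate, Benjamini-Hochberg adjustment over all 9876 genes, threshold 0.05). CPM use TMM library sizes. Precision follows from 1823167 to 4827956 counts per library. Coordinates come from GENCODE M21, matched by Ensembl ID without its version (100% of members). Named members are those with an adjusted p below 0.05, the 12 with the smallest p, the 3 with the highest CPM per subunit, the 2 with the smallest p per structural list and those not tested. From the other lists the genes called and the 2 with the smallest p are named, in part only for cell markers, and 1 gene is not reported here. Other genes, such as Ucp1, Mrps2, Mrps30, Sars2 and Ptcd2, were chosen after their values were seen. The members and lists were chosen with earlier results of these data known. Python 3.11.15 with pandas 2.3.3 and matplotlib 3.10.9 made the tables and plots. Alternatives were DESeq2 1.42.0, limma-trend (limma 3.58.1) on log2 of the deposited signal plus 1, other normalizations and filters, counts cut to whole numbers, no mitochondrially encoded genes, the replicate number as a block, and each library left out.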

Additional observations from a re-analysis of the deposited data

Results flagged for a closer look

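In 4 of 48 groups of 4 libraries examined, 1 library stood far from the other 3 by Dixon's criterion, where chance gives about 1 in 20 groups, or 2.4 of 48. Mrps6 was at 197 CPM in CAC replicate 1 and at 109 to 117 CPM in the other CAC libraries. Mrpl12 was at 280 CPM in the same library and at 190 to 204 CPM in the others. Mrpl53 was at 38.3 CPM in CAC replicate 4 and at 29.9 to 30.8 CPM in the other CAC libraries. Mrpl32 was at 7.92 CPM in CTR replicate 1 and at 11.2 to 11.6 CPM in the other CTR libraries.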

How the results depend on the processing

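The median log2 fold change of the family stayed below 0 in every alternative run, between -0.13 and -0.06. The alternatives reuse the same 8 libraries, so they cannot show how far the median would vary between other mice. The number of genes called among all genes was 351 with no low-count filter, 140 with the replicate block, 183 at an adjusted p below 0.1 and 42 (without CTR replicate 1) to 135 when single libraries were left out, with 60 without CAC replicate 3. The sources used here do not say that the replicate numbers pair the mice. Deviations of same-numbered libraries correlated by -0.023 to 0.036 over the tested genes, which shows no broad pairing but cannot exclude a link that affects few genes. With the block 1 member was called. Called members numbered 0 to 2 when single libraries were left out, with 0 without CTR replicate 1, CTR replicate 2 or CAC replicate 2, and 2 (Mrps21 and Mrps6) without CAC replicate 1. Of 356 values of 21 named members, 337 kept sign and side of the threshold and 15 changed sign, in 3 members with differences near 0. Mrpl51 was at -0.0018 with upper quartile normalization, -0.01 with no low-count filter and from -0.02 to 0.06 when single libraries were left out. Mrpl34 was at -0.0035 with library size normalization, -0.01 with upper quartile normalization, -0.01 with no filter and from -0.13 to 0.17 when single libraries were left out. Mrpl12 ranged from -0.18 (without CAC replicate 1) to 0.03 (without CTR replicate 1) in those fits. The mean ratio of Mrpl to Mrps sums was higher in CAC by 0.144, by 0.0883 without Mrps21, and differed by -0.0513 among members without fractions of reads. Over the 24 such members that were tested, the median log2 fold change was -0.11, with 16 below 0. The summed body list of the small subunit differed between CAC and CTR by -118 CPM with Mrps21 and by -54.7 CPM without it. The causes were not tested. Libraries of 1 group differed beyond counting error (chi-square per degree of freedom 3.73 to 8.32), so the intervals reflect variation between libraries as well as depth.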
